A study of Mus musculus with 9 samples.

Results

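The genes of insulin-like growth factor (IGF) and insulin signalling described here were chosen by name: the ligand gene Igf1, the receptor genes Igf1r and Insr, the docking protein genes Irs1 and Irs2, and the binding protein genes Igfbp2, Igfbp4, Igfbp5, Igfbp6 and Igfbp7. They are 10 of the 38293 genes in the deposited count table. Each was found there under 1 Ensembl identifier, and all 10 were among the 15318 genes with enough counts to be tested.

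The comparison addressed how deleting Arid1a, which encodes a subunit of SWI/SNF, a complex that remodels chromatin, in heart muscle cells alters gene expression in the neonatal heart. RNA was taken from ventricles of littermate mice at postnatal day 7 (P7), from lines kept on a C57B/6J background according to the methods. The control group (5 libraries) was Arid1a f/f, with both copies of the gene flanked by loxP sites and no Cre recombinase. The knockout group (cKO, 4 libraries) was αMHC-Cre;Arid1a f/f, in which the αMHC promoter drives Cre in cardiomyocytes. Both groups carried the floxed alleles and only the cKO group carried Cre, so effects of the deletion and of Cre itself cannot be told apart. Cells in which αMHC is silent keep Arid1a by design, and in bulk RNA fewer cells of a type and less RNA per cell cannot be told apart.

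Levels are given as CPM, the count of a gene scaled to a common library total, and the depth was 31011055 to 40073801 counts per library. Arid1a itself was at 128 to 148 CPM in controls and at 100.3 to 113 CPM in cKO, with no overlap. Apart from genotype the libraries formed a low and a high set by their level of Rps3a3, a copy of a ribosomal protein gene, and each set held both genotypes. Control 1 and 2 and cKO 1, 2 and 3 held 0.345 to 0.521 CPM of Rps3a3 (the Rps3a3-low set). Control 3, 4 and 5 and cKO 4 held 99.7 to 112 CPM (the Rps3a3-high set). No batch is given in the labels, and differences within each set are given below where they matter. The study used pups of both sexes. Xist, which marks female samples, was at 745 and 904 CPM in control 2 and 3 and at 880 and 872 CPM in cKO 3 and 4. In the other libraries it was at most 0.283 CPM, and its level served as a covariate in 1 alternative fit.

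IGF-1 and IGF-2 bind the IGF-1 receptor and insulin binds the closely related insulin receptor. Both receptors are tyrosine kinases that phosphorylate the docking proteins IRS-1 and IRS-2, which recruit phosphoinositide 3-kinase (PI3K) and thereby activate AKT. AKT in turn acts on glucose uptake, on protein synthesis through mTOR and on the FoxO transcription factors. Binding proteins outside the cell hold IGFs and limit or prolong their access to the receptor. In the heart the pathway is known for supporting cardiomyocyte growth around birth and the later use of glucose.

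Of the 10 genes, 3 rose in cKO ventricles: Igf1r, Igfbp7 and Igfbp4. The adjusted p of edgeR's quasi-likelihood test was under 0.05 for these 3, where 8.25% of all tested genes passed as higher. None fell by that test, where 8.03% of all tested genes passed as lower. Only 1 gene (Insr) was lower at an unadjusted p under 0.05 and in DESeq2's adjusted test, which passed 20.5% of all genes over both directions. With a fold change over 1.5 also required, 1 of the 10 was called (Igf1r), where 6.72% of all genes were. The groups did not overlap for 4 of the 10, where 16.7% of all genes had no overlap. The median log2 fold change was -9.1e-05 over the 10 genes and 0.0094 over all genes tested.

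**Figure D1:**
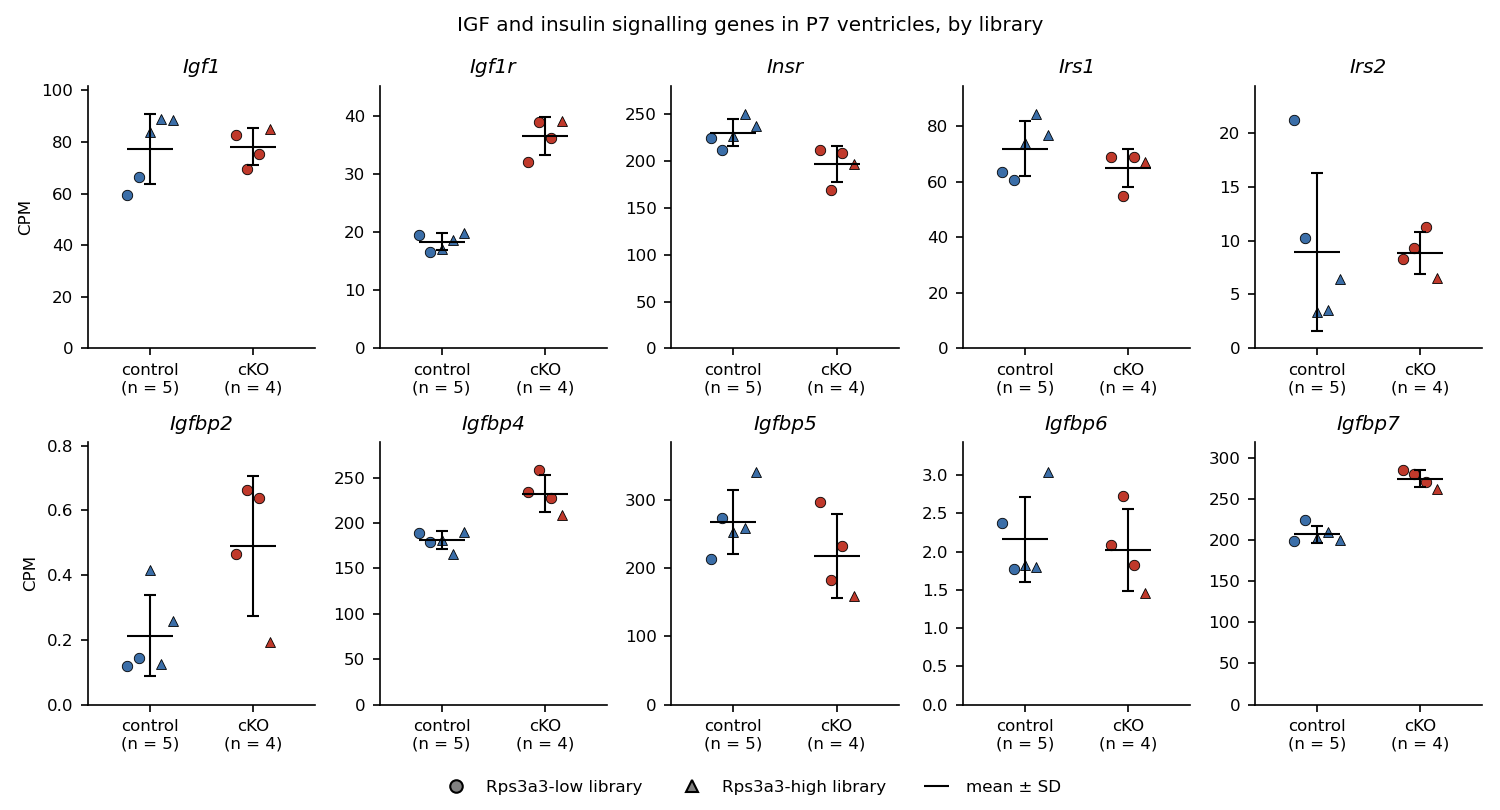
Level of each of the 10 genes in every library, in CPM on a linear axis from 0, for 5 control and 4 cKO libraries. Circles are Rps3a3-low and triangles Rps3a3-high libraries, and bars give the mean and SD. The groups are apart for Igf1r, Insr, Igfbp4 and Igfbp7, and Irs2 spans 3.41 to 21.2 CPM among controls.

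Igf1 (ENSMUSG00000020053, GRCm38 chromosome 10, 87858265 to 87937042) encodes IGF-1, the ligand. It was at 59.5, 66.4, 83.9, 88.8 and 88.4 CPM in control 1 to 5 and at 82.7, 69.7, 75.2 and 85.2 CPM in cKO 1 to 4. The groups overlapped, and control 1 and 2 were the lowest of all libraries. The means were 77.4 ± 13.5 CPM in controls (n = 5, SD) and 78.2 ± 7.07 CPM in cKO (n = 4, SD), a log2 fold change of 0.015 (edgeR adjusted p = 0.948, SE 0.12). Control libraries of the Rps3a3-high set were 0.46 higher on the log2 scale than those of the Rps3a3-low set, more than the difference between the groups. Within the Rps3a3-low set cKO was 0.27 above control and within the Rps3a3-high set it was at -0.030.

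Igf1r (ENSMUSG00000005533, chromosome 7, 67952827 to 68233668) encodes the IGF-1 receptor, and the study included it among targets of the transcriptional coactivator YAP. By qPCR of cKO and control hearts the study found only a small rise of Igf1r, short of significance. Its level was 19.6, 16.6, 17.1, 18.7 and 19.9 CPM in control 1 to 5. In cKO 1 to 4 it was 32.0, 39.0, 36.1 and 39.1 CPM. Every cKO library lay above every control, and the lowest cKO library was well over the highest control. The mean rose from 18.4 ± 1.45 CPM (n = 5, SD) to 36.5 ± 3.32 CPM (n = 4, SD), which was 1.99-fold, with a log2 fold change of 0.99 (edgeR adjusted p = 1.1e-05, SE 0.085). Of the 15318 genes tested, 85 had a smaller p. The difference was 0.96 in the Rps3a3-low set and 1.06 in the Rps3a3-high one.

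Insr (ENSMUSG00000005534, chromosome 8, 3122061 to 3279617) encodes the insulin receptor. Its level was 224, 212.5, 227, 251 and 238 CPM in control 1 to 5 and 212.2, 169.6, 209 and 197 CPM in cKO 1 to 4. The groups did not overlap, but the highest cKO library lay just under the lowest control. The means were 231 ± 14.6 CPM (n = 5, SD) and 197 ± 19.4 CPM (n = 4, SD), with a log2 fold change of -0.23 that missed the threshold in edgeR's test (adjusted p = 0.0652, SE 0.076). The call depended on the test: the adjusted p was 0.0334 by DESeq2, 0.0168 in edgeR after trends on GC content and gene length had been removed, and 0.0483 without cKO 1. In the other 17 of 20 alternatives Insr did not pass, with an adjusted p of up to 0.540 in the fit to the Rps3a3-low libraries (-0.15), 0.153 without cKO 2 (-0.16) and 0.100 with the replicate block. Within the sets it was -0.16 (low) and -0.27 (high).

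Per kilobase of exon, Insr exceeded Igf1r in every library. The ratio of Insr to Igf1r in CPM per kb was 15.3 in controls and 6.58 in cKO, taken from the mean log2 ratios. The log2 ratio of Igf1r to Insr was -3.81, -3.97, -4.01, -4.04 and -3.87 in control 1 to 5 and -3.02, -2.41, -2.82 and -2.63 in cKO 1 to 4. No cKO library reached the control range, and the cKO libraries were spread more widely than the controls. The means were -3.94 ± 0.096 (n = 5, SD) and -2.72 ± 0.26 (n = 4, SD), a difference of 1.22, which lay between 1.12 and 1.32 when any 1 library was left out. A ratio within a library does not depend on library scaling.

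Irs1 (ENSMUSG00000055980, chromosome 1, 82233101 to 82291416) encodes the docking protein IRS-1. Its level was 63.7, 60.7, 74.2, 84.5 and 77.0 CPM in control 1 to 5 and 69.0, 55.0, 68.9 and 67.1 CPM in cKO 1 to 4. The groups overlapped, and cKO 2 was the lowest library. The log2 fold change was -0.15 (edgeR adjusted p = 0.385, SE 0.11), and -0.084 without control 4 or -0.075 without cKO 2. Within the sets it was 0.041 (low) and -0.22 (high). Of its exon bases, 2822 (30.9%) overlap the opposite-strand gene Gm9747, which was at 0.0252 CPM in controls.

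Irs2 (ENSMUSG00000038894, chromosome 8, 10984681 to 11008458) encodes IRS-2, whose transcript falls after insulin and rises on fasting in liver. It was at 21.2, 10.2, 3.41, 3.52 and 6.40 CPM in control 1 to 5 and at 8.31, 9.33, 11.3 and 6.54 CPM in cKO 1 to 4. All 4 cKO libraries fell inside the control range, which ran from control 3 (123 counts) to control 1 (704 counts). The means were 8.95 ± 7.38 CPM (n = 5, SD) and 8.86 ± 1.98 CPM (n = 4, SD), with a log2 fold change of -0.015 (edgeR adjusted p = 0.989, SE 0.55). Without control 1 it was 0.59 (adjusted p = 0.281), so 1 library set the value, and the sign also turned without control 2, cKO 1 or cKO 4. The difference was -0.60 in the Rps3a3-low set and 0.56 in the Rps3a3-high one, and control libraries of the high set differed from those of the low set by -1.68 on the log2 scale.

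The ratio of Irs1 to Irs2 per kb followed Irs2. On the log2 scale it was 1.06, 2.04, 3.91, 4.05 and 3.06 in control 1 to 5 and 2.52, 2.03, 2.08 and 2.83 in cKO 1 to 4. The cKO libraries all lay within the control range. The difference of the means was -0.46, smaller than the control SD of 1.27. It was -0.90 without control 1, -0.19 without control 3 and -0.15 without control 4, so single controls set its size.

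**Figure D2:**
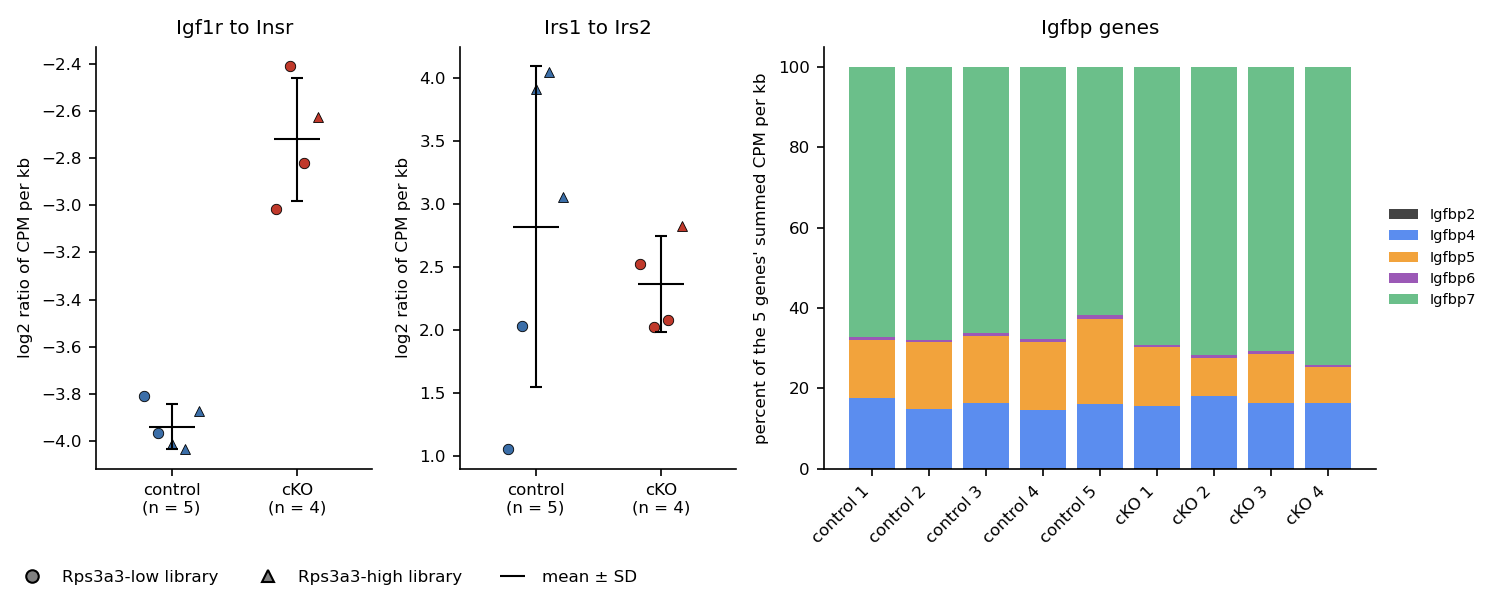
Left and middle, log2 ratios of CPM per kb in each library for Igf1r to Insr and Irs1 to Irs2, with mean and SD for 5 control and 4 cKO libraries. Right, the share of each of 5 Igfbp genes in their summed CPM per kb, in percent, by library. Igf1r to Insr is near -3.94 in controls and -2.72 in cKO, and the Igfbp7 share is 61.8 to 67.9% in controls and 69.3 to 74.2% in cKO.

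Igfbp4 (ENSMUSG00000017493, chromosome 11, 99041244 to 99054392) encodes a secreted protein that blocks IGF action until the protease PAPP-A cuts it. Its level was 189, 179, 181, 165 and 189.7 CPM in control 1 to 5 and 235, 258, 227 and 209 CPM in cKO 1 to 4. Every cKO library was above every control, with cKO 4 the closest. The mean rose from 181 ± 9.87 CPM (n = 5, SD) to 232 ± 20.4 CPM (n = 4, SD), a log2 fold change of 0.36 (edgeR adjusted p = 0.00436, SE 0.070). It was 0.38 in the Rps3a3-low set and 0.22 in the Rps3a3-high one, and in the fit to the 5 Rps3a3-low libraries alone the adjusted p was 0.0548.

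Igfbp7 (ENSMUSG00000036256, chromosome 5, 77349240 to 77408041) encodes a secreted protein of the vessel wall and matrix that binds IGFs weakly compared with the classical binding proteins. It was at 199, 224, 202, 209 and 200.4 CPM in control 1 to 5 and at 285, 280.2, 271 and 261 CPM in cKO 1 to 4. The groups did not overlap, and each was tight. The mean rose from 207 ± 10.5 CPM (n = 5, SD) to 274 ± 10.6 CPM (n = 4, SD), a log2 fold change of 0.41 (edgeR adjusted p = 0.000531, SE 0.057). It was 0.40 in the Rps3a3-low set and 0.36 in the Rps3a3-high one. After trends on GC content and gene length had been removed it was 0.22 and no longer passed (adjusted p = 0.173). The gene has 1209 exon bases with a GC content of 58.8%, and 85 of these bases overlap the opposite-strand gene Polr2b, which was at 71.6 CPM in controls.

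Igfbp5 (ENSMUSG00000026185, chromosome 1, 72857932 to 72874884) encodes a binding protein that also attaches to extracellular matrix. Its level was 213, 274, 254, 259 and 341 CPM in control 1 to 5 and 298, 183, 233 and 159.8 CPM in cKO 1 to 4. The groups overlapped, although the highest value was a control and the lowest a cKO library. The means were 268 ± 46.5 CPM (n = 5, SD) and 218 ± 61.1 CPM (n = 4, SD), with a log2 fold change of -0.30 (edgeR adjusted p = 0.320, SE 0.19). It was -0.49 without cKO 1 (adjusted p = 0.0613) and -0.18 without cKO 4 (adjusted p = 0.554). Within the sets it was -0.052 (low) and -0.82 (high).

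Igfbp2 (ENSMUSG00000039323, chromosome 1, 72824503 to 72852474) lies 5457 bases from Igfbp5 on the opposite strand and was the least abundant of the 10. It had 4, 5, 15, 4 and 8 counts in control 1 to 5 and 15, 25, 22 and 8 counts in cKO 1 to 4. Only 4 libraries reached the minimum count of 10, of which 3 were cKO, so the gene passed the filter mainly through the group in which it was higher. The log2 fold change was 1.17 (edgeR adjusted p = 0.114, SE 0.47) and the groups overlapped. It passed without cKO 4 (1.44, adjusted p = 0.0492) and in the Rps3a3-low libraries alone (2.12, adjusted p = 0.0496), on these same few counts. Within the sets the difference of mean log2(CPM + 0.5) was 0.78 (low) and -0.13 (high). The added 0.5 CPM is large beside these levels and shrinks such differences. The high set rests on 8 counts in cKO 4 against 15, 4 and 8 in control 3, 4 and 5, too few to give a direction.

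Igfbp6 (ENSMUSG00000023046, chromosome 15, 102144362 to 102149511), whose product prefers IGF-2, was at 1.77 to 3.04 CPM in controls (median 1.83) and 1.45 to 2.73 CPM in cKO. The groups overlapped, with a log2 fold change of -0.094 (edgeR adjusted p = 0.826, SE 0.23). Within the sets it was 0.074 (low) and -0.45 (high).

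**Figure D3:**
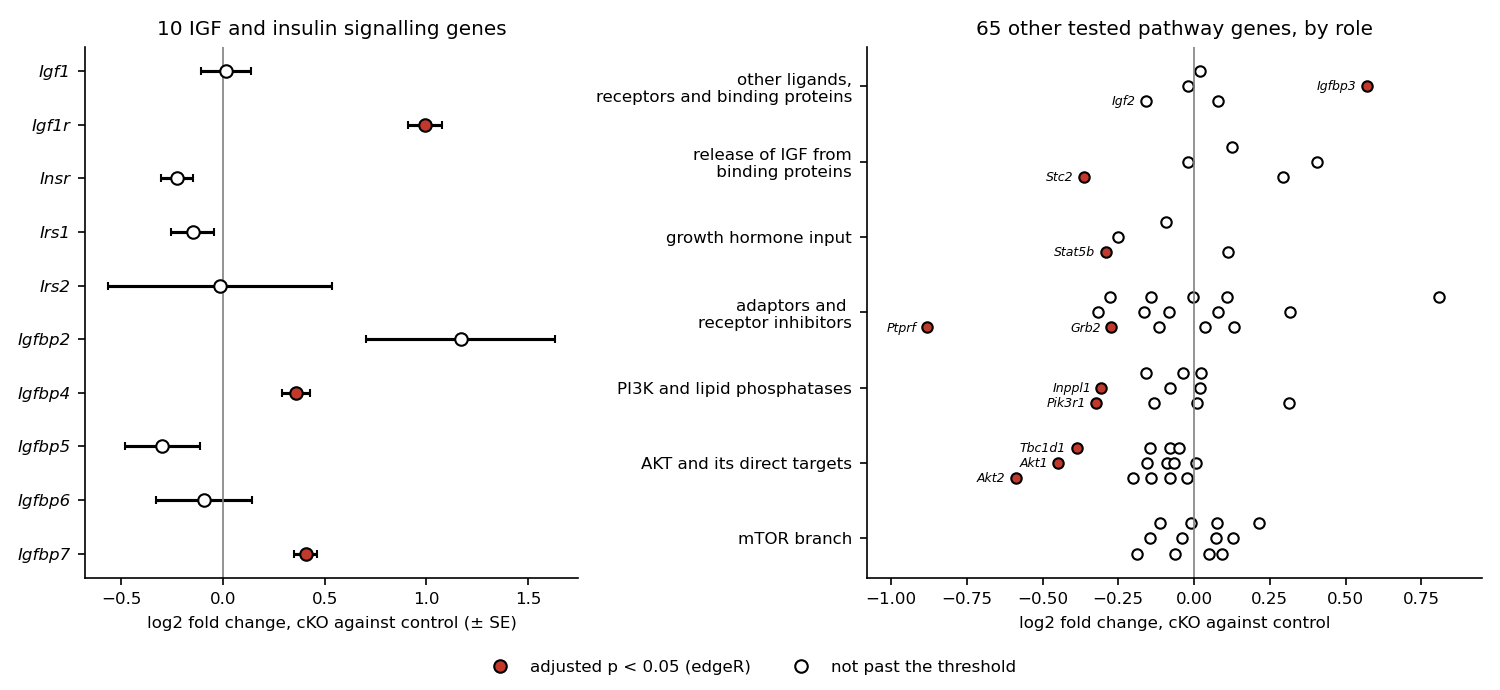
Log2 fold changes of cKO against control. Left, the 10 genes with their SE. Right, 65 other tested genes of the pathway by role, each point 1 gene. Filled points passed an adjusted p of 0.05 in edgeR, and on the right 1 of these lies above 0 (Igfbp3) and 9 lie below.

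Among the 5 Igfbp genes the summed level was 245 to 274 CPM per kb in controls and 292 to 341 CPM per kb in cKO, with no overlap. Igfbp7 made up 66.2 ± 2.54% of it in controls (n = 5, SD) and 71.5 ± 2.06% in cKO (n = 4, SD). The range was 61.8 to 67.9% and 69.3 to 74.2%, so this share did not overlap. The Igfbp5 share was 17.2 ± 2.43% and 11.3 ± 2.57%, overlapping only at 14.5% in control 1 and cKO 1, and the Igfbp4 share was 15.9 ± 1.15% and 16.5 ± 1.07%. These shares describe transcripts and not protein. The sums and shares were not corrected for GC and length trends. With these trends removed the Igfbp7 log2 fold change was 0.22 and did not pass (edgeR adjusted p = 0.173).

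Compared per kb of exon, the order of the levels in controls was Igfbp7 (171 ± 8.67 CPM per kb), Igfbp5 (44.7 ± 7.74), Igfbp4 (41.0 ± 2.23), Insr (16.8 ± 1.06), Irs1 (7.87 ± 1.07), Igf1 (7.81 ± 1.37), Igfbp6 (1.94 ± 0.497), Irs2 (1.42 ± 1.17), Igf1r (1.09 ± 0.0861) and Igfbp2 (0.115 ± 0.0684), each as mean and SD over 5 libraries. Igfbp5 and Igfbp4 overlapped, as did Irs1 and Igf1, and Irs2 overlapped both Igfbp6 and Igf1r. The level of Igfbp7 was above that of 98.8% of the 15174 tested genes with a length, and that of Igf1r above 24.5% of them. In cKO ventricles Igf1r (2.18 ± 0.198 CPM per kb) stood above Irs2 (1.40 ± 0.313) without overlap and overlapped Igfbp6 (1.82 ± 0.484). Igfbp4 (52.6 ± 4.62 CPM per kb) and Igfbp5 (36.3 ± 10.2) still overlapped.

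Promoter sequence is shown for the 3 genes that rose, with Igfbp5, which did not pass, beside them. RefSeq promoter windows on GRCm38.p6, from 250 bases before to 50 after the start site, were matched by symbol for all of the 10 genes but Insr. The last 120 bases before the start site are printed 5′ to 3′ along the gene, with each CG pair in capitals.
Igf1r, chr7:67952137-67952256, plus strand: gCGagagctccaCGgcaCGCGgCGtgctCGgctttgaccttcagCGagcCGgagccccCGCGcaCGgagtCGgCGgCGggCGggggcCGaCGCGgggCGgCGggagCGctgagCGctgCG
Igfbp4, chr11:99041124-99041243, plus strand: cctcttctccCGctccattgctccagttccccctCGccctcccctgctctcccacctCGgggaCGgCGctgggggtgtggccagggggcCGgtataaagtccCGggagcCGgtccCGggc
Igfbp7, chr5:77408046-77408165, minus strand: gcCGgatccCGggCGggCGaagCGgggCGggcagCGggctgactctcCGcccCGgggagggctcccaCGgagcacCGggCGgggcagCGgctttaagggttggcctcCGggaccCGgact
Igfbp5, chr1:72874866-72874985, minus strand: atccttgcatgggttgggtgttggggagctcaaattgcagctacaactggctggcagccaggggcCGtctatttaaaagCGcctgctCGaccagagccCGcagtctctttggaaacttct

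The Igf1r window of 300 bases held 48 CG pairs, more than 98.8% of all 32851 windows, whose median was 7. The windows of Igfbp7 and Igfbp4 held 33 and 27 CG pairs, more than 91.4% and 84.5% of windows, and that of Igfbp5 held 10, more than 56.5%. GENCODE M21 places the Igf1r start 570 bases further downstream. The letters GGAATG, the core of the site bound by TEAD, the DNA-binding partner of YAP, were searched on both strands. They occurred in the windows of Irs1 and Igfbp5, neither of which passed the test, and not in that of Igf1r, and 14.7% of all windows held them. The FoxO letters GTAAACA, searched on both strands, occurred in none of the windows of these genes and in 3.65% of all windows. TATAAA, searched on the gene's strand, began 28 bases before the start (position -28) in Igfbp4 and was in 8.32% of all windows. A match or its absence is a description of these letters only.

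The other genes of the pathway were taken from a list of 71, of which 65 could be tested. Of these 1 was higher and 9 were lower in cKO by edgeR's adjusted p, 15.4% in all, where 8.25% and 8.03% of all tested genes passed in these directions, and 2 were called lower with a fold change over 1.5, where 2.72% of all tested genes were. DESeq2 gave 2 higher and 11 lower, where it passed 20.5% of all genes. With GC and length trends removed edgeR passed 17 of the 65 and 23.4% of all genes. In the 5 Rps3a3-low libraries alone it passed 4 of the 65 (Akt2, Inppl1, Ptprf and Tbc1d1) and 5.44% of all genes. The median log2 fold change was -0.064, against 0.0094 over all genes. The insulin genes Ins1 and Ins2, the receptor gene Insrr, Igfbp1, Irs3 and Irs4 were not tested, with 0 to 49 counts over all 9 libraries.

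Among ligands and binding proteins, Igfbp3, the main carrier of IGFs in serum, was at 29.3, 20.2, 22.5, 21.3 and 25.8 CPM in control 1 to 5. In cKO 1 to 4 it was at 38.5, 38.7, 33.1 and 31.1 CPM. The groups did not overlap, and Igfbp3 rose with a log2 fold change of 0.57 (edgeR adjusted p = 0.00505, SE 0.11), although it missed the threshold in the 5 Rps3a3-low libraries alone (0.57, adjusted p = 0.101). Igf2, the other ligand gene, was at 751 to 888 CPM in controls and 718 to 784 CPM in cKO (log2 fold change -0.16, edgeR adjusted p = 0.122, SE 0.064). With GC and length trends removed it passed as lower (-0.22, adjusted p = 0.0279). Among genes that control release of IGF from binding proteins 1 of 5 passed, where 8.03% of all tested genes passed as lower: Stc2, which encodes an inhibitor of PAPP-A, fell by 0.36 on the log2 scale (edgeR adjusted p = 0.0391, SE 0.11). The Stc2 call was lost when any 1 library other than control 1 or cKO 4 was left out, with adjusted p up to 0.105. Of 4 growth hormone genes 1 passed, beside the same share of all genes: Stat5b, which carries the growth hormone signal to Igf1 in liver, fell by 0.29 (edgeR adjusted p = 0.0196, SE 0.075) and lost the call without cKO 4 (adjusted p = 0.0604).

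Inside the cell, 2 of 15 adaptors and receptor inhibitors fell, where 8.03% of all tested genes passed as lower. Ptprf, a receptor-type tyrosine phosphatase that can act on the insulin receptor, was at 52.1, 39.1, 39.8, 41.3 and 44.1 CPM in control 1 to 5 and 19.1, 28.5, 20.9 and 25.3 CPM in cKO 1 to 4. All cKO libraries lay below all controls (log2 fold change -0.88, edgeR adjusted p = 0.000518, SE 0.12). Grb2, the adaptor that links receptors to Ras, fell by 0.27 (edgeR adjusted p = 0.0124, SE 0.064), and its groups did not overlap. Of 10 PI3K and lipid phosphatase genes 2 fell, beside the same share of all genes. Pik3r1, the main regulatory subunit of PI3K, fell by 0.32 (edgeR adjusted p = 0.0211, SE 0.084), and Inppl1, a phosphatase of the PI3K product, fell by 0.31 (edgeR adjusted p = 0.011, SE 0.070). The Pik3r1 call was lost without cKO 2, 3 or 4 (adjusted p of 0.0585, 0.0505 and 0.0544).

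Of 14 genes of AKT and its direct targets 3 fell, against the same 8.03% of all tested genes. Akt2, the AKT form most tied to insulin-driven glucose uptake, was at 122, 126, 112, 112 and 117 CPM in control 1 to 5 and 77.0, 83.0, 79.4 and 74.1 CPM in cKO 1 to 4. The groups were far apart, with a log2 fold change of -0.59 (edgeR adjusted p = 5.3e-05, SE 0.061). Akt1, the AKT form most tied to growth, was at 382, 331, 279, 283 and 301 CPM in controls and 206, 283, 217 and 218 CPM in cKO. Here cKO 2 overlapped the controls, and control 1 and 2 were the highest libraries. The log2 fold change was -0.45 (edgeR adjusted p = 0.0183, SE 0.11) and the call was lost without cKO 3 (adjusted p = 0.0585) or cKO 4 (adjusted p = 0.0541). Tbc1d1, an AKT substrate that controls the traffic of glucose transporters, fell by 0.39 (edgeR adjusted p = 0.00767, SE 0.083). Of 12 genes of the mTOR branch, 0 passed by edgeR or DESeq2, and 1 was lower at an unadjusted p under 0.05.

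The FoxO-activated genes, which FoxO factors switch on when AKT is inactive, were a list of 10, all tested, beside the 8.25% higher and 8.03% lower among all tested genes. By edgeR 1 was higher, Sesn1, a stress-induced inhibitor of mTOR signalling, with a log2 fold change of 0.39 (edgeR adjusted p = 0.00106, SE 0.061) and 79.1 to 90.2 CPM in controls against 104 to 118 CPM in cKO. Cdkn1b, which encodes the cell cycle inhibitor p27, was lower by edgeR (log2 fold change -0.27, edgeR adjusted p = 0.0253, SE 0.072), a call lost when any of control 2 to 5, cKO 2 or cKO 3 was left out (adjusted p of 0.0510 to 0.0631). The muscle ubiquitin ligases Fbxo32 and Trim63 had log2 fold changes of -0.074 and 0.0088 and did not pass (edgeR adjusted p of 0.721 and 0.934), and were named after their values were seen. Pdk4, an inhibitor of pyruvate dehydrogenase, was also named after its values were seen. It was at 202, 184, 562, 401 and 345 CPM in control 1 to 5, lowest in the Rps3a3-low controls, which also held the most Irs2, and at 486, 249.96, 398 and 351 CPM in cKO 1 to 4 (log2 fold change 0.13, edgeR adjusted p = 0.845, SE 0.36). Without control 1, control 2 or cKO 1 its sign turned. It was 0.97 in the Rps3a3-low libraries alone (edgeR adjusted p = 0.123) and 0.51 in the fit that adjusts for the library set (adjusted p = 0.395).

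Markers of other cell types were measured beside the binding protein genes, which fibroblasts and vessels also express. The summed level of 10 fibroblast markers was 7368 to 8723 CPM in controls and 8891 to 10011 CPM in cKO, with no overlap, and 4 of the 10 rose by edgeR, where 8.25% of all tested genes passed as higher (Col1a1, Col1a2, Tcf21 and Postn). None of the 10 fell by edgeR's or DESeq2's adjusted p and 1 was lower at an unadjusted p under 0.05 (Dpt, log2 fold change -0.26), while Gsn was at -0.29 and Dcn at -0.045 without passing. The median log2 fold change of the list was 0.13. The log2 ratio of the group means was 0.22 for the fibroblast sum and 0.44 for the sum of 10 macrophage markers. It was 0.0030 for the endothelial, 0.060 for the mural and -0.18 for the cardiomyocyte marker sum. The fitted changes were 0.36 for Igfbp4, 0.41 for Igfbp7 and 0.57 for Igfbp3. The 12 cardiomyocyte markers summed to 65172 to 75068 CPM in controls and 58909 to 64103 CPM in cKO, with 2 of the 12 lower, where 8.03% of all tested genes passed as lower. The part of these shifts in the results was not tested.

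The 10 endothelial markers summed to 1874 to 2089 CPM in controls and 1903 to 2068 CPM in cKO, which overlapped, and 1 of them was lower (Tek). The counts of markers that passed by edgeR stand beside 8.25% of all tested genes higher and 8.03% lower. DESeq2 passed 20.5% of all genes over both directions. Of 8 mural markers 0 rose by edgeR or DESeq2 and none fell by either test. At an unadjusted p under 0.05, 2 of them were higher (Pdgfrb and Notch3) and 1 lower (Myh11, -0.30), and the sums overlapped (1850.2 to 1954 and 1842 to 2168 CPM). Of 10 macrophage markers 0 rose by edgeR, 1 by DESeq2 and 1 at an unadjusted edgeR p under 0.05, with overlapping sums of 123 to 205 and 146 to 268 CPM. Of 6 epicardial markers 1 was higher (Tbx18) and 1 lower (Wt1), with sums of 41.1 to 99.9 and 45.9 to 67.9 CPM. Of 4 atrial markers 3 could be tested and 1 of these was higher (Myl7, log2 fold change 1.20). Sln (-1.25) and Myl4 (0.16) did not pass, and the sums of the 4 overlapped (60.5 to 137 and 127 to 190.03 CPM). The 4 Schwann cell markers summed to 10.3 to 17.5 CPM in controls and 7.18 to 14.7 CPM in cKO. The 5 skeletal muscle markers summed to 1.38 to 2.20 CPM in controls and 2.78 to 2.86 CPM in cKO, which did not overlap. Of these, Mylpf and Tnnt3 could be tested and did not pass (log2 fold changes 0.75 and 0.62, edgeR adjusted p of 0.0705 and 0.0529), and Myod1 was at 0. The adipocyte markers were near 0, with Lep at 0. All 12 cardiomyocyte markers were expressed, as the tissue label implies. The single markers named were chosen after their values were seen.

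**Figure D4:**
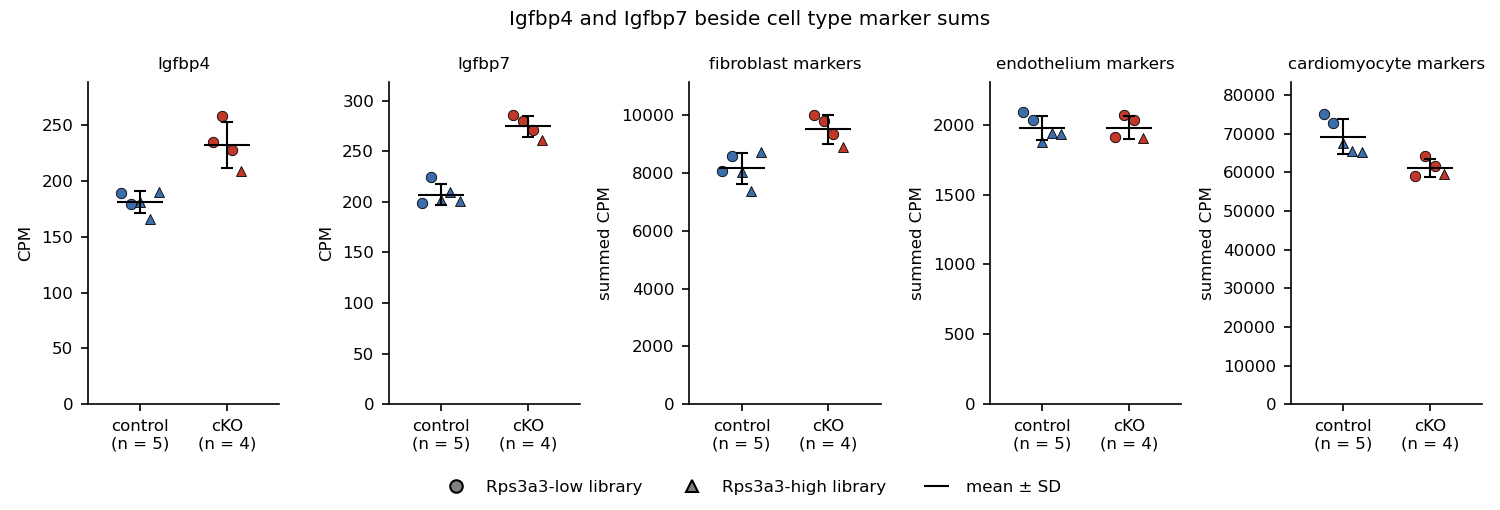
Igfbp4 and Igfbp7 (CPM) and the summed CPM of fibroblast, endothelium and cardiomyocyte markers in each library, on linear axes from 0, with mean and SD for 5 control and 4 cKO libraries. The fibroblast sums of cKO lie above those of controls (8891 to 10011 against 7368 to 8723 CPM), the endothelial sums overlap and the cardiomyocyte sums of cKO lie below.

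Genes with the most similar pattern were sought for the 3 that rose, after the group means had been removed, so that the shared difference between the groups did not count. Over the 9 libraries and among 11003 candidate genes, Igf1r was closest to Sipa1l1 (Pearson r = 0.981) and Mrps27 (0.975). Igfbp4 was closest to Map4k2 (0.973) and Mepce (0.966), and Igfbp7 to 2810002D19Rik (0.968) and LTO1 (0.953). None of these 6 genes passed the test between groups. With 9 libraries that share their scaling and so many candidates these values are a description only.

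**Figure D5:**
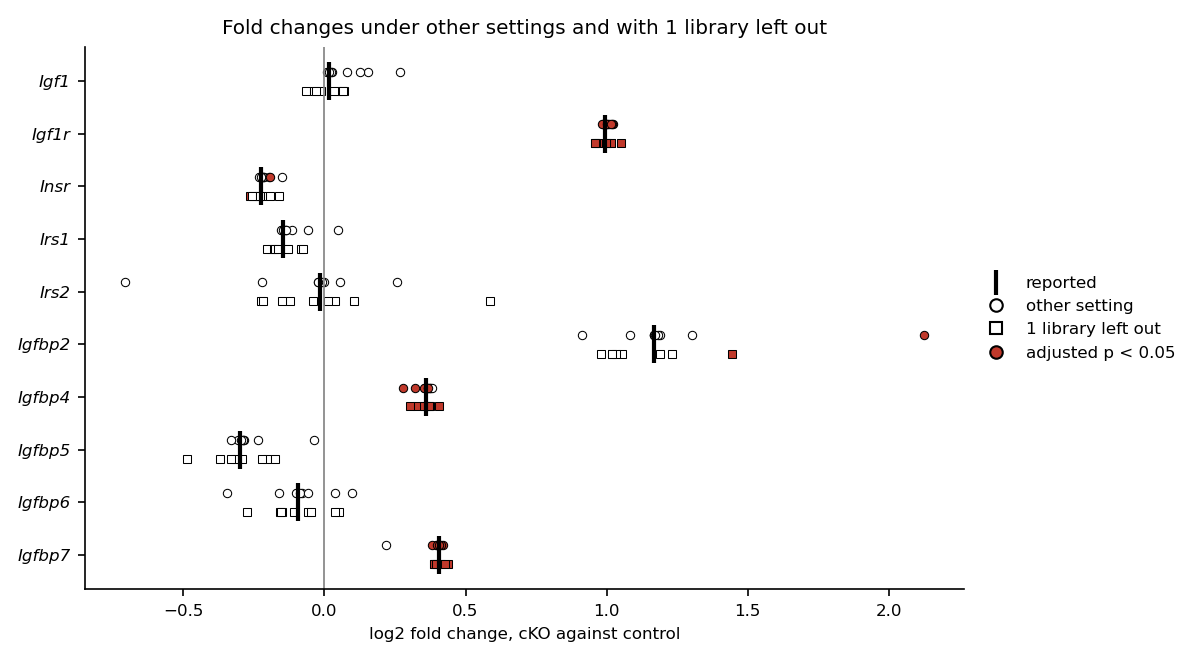
Log2 fold change of each of the 10 genes as reported (vertical bar), under other processing settings (circles) and with 1 library left out (squares), filled where the adjusted p was under 0.05. Igf1r stays between 0.96 and 1.05 and is filled throughout, whereas Irs2 runs from -0.70 to 0.59.

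Across all 20 other settings and left-out libraries Igf1r stayed past the threshold, with log2 fold changes of 0.96 to 1.05. Igfbp4 passed in all of them but the fit to the Rps3a3-low libraries, at 0.28 to 0.41, and Igfbp7 in all but that with GC and length trends removed, at 0.22 to 0.44. Igf1, Irs1, Irs2, Igfbp5 and Igfbp6 passed in none.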

How the data were processed

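RNA was extracted with TRIzol from P7 ventricles and made into stranded mRNA libraries. The values deposited by the authors are raw counts per gene. The submitters' processing notes name STAR 2.4.2a, HTSeq 0.6.1 and mm10; the strand setting and annotation are not given in the sources used here, so genes overlapping on opposite strands are uncertain. The table held 0 columns of other samples. A legend of the study counts 5 control and 4 cKO hearts, as the labels do, so each library is taken as 1 heart. Its methods state a smaller number of controls, and all 5 labelled ones were used. No pair of libraries of a group was as alike as sampling noise allows (chi-square per degree of freedom 9.77 to 50.7).

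Symbols and exon lengths came from GENCODE M21 on GRCm38 (36345 identifiers, 99.82% of counts). Genes passing filterByExpr (minimum count 10) were scaled by TMM and tested two-sided with the robust quasi-likelihood F test of edgeR 4.0.16 in R 4.3.3, with genotype alone and Benjamini-Hochberg adjustment over 15318 genes. SE is the size of the log2 fold change over the root of F. The fold of 1.5 and adjusted p of 0.05 follow the study, which used DESeq2. Differences within library sets are of mean log2(CPM + 0.5), over 1 cKO library in the Rps3a3-high set, and have no test. Scripts were tested on simulated data. The genes and lists were chosen with earlier results of these data known. All 10 genes are named, with, per role of the wider list and for the FoxO list, up to 3 that passed with the largest change, Igf2, and the 2 genes most like each that passed (mean of at least 5 CPM). Alternatives were DESeq2 1.42.0, other scalings and filters, the replicate block, library set, Xist, GC and length trends, and leaving out each library.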

Additional observations from a re-analysis of the deposited data

Results flagged for a closer look

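Of 20 groups of values examined (10 genes in 2 groups), 1 held a library that stood apart from the others of its group: Irs1 in cKO 2, the lowest at 55.0 CPM against 67.1 to 69.0 CPM in the other cKO libraries. Its gap to the nearest of these was 0.877 of the range of the group on the log2 scale. Chance flags about 1 in 20 such groups. Without cKO 2 the log2 fold change of Irs1 was -0.075 and did not pass.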

How the results depend on the processing

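Igf1r and Igfbp5 kept their direction and side of the threshold under every alternative run, although Igfbp5 ranged from -0.49 to -0.18 with 1 library left out and was -0.035 in the Rps3a3-low libraries alone. The difference in the Igf1r to Insr ratio, which was not tested, was 1.12 to 1.32 with 1 library left out, and that in the Irs1 to Irs2 ratio, also not tested, -0.90 to -0.15. The number of the 10 genes called was 1, and 2 in the Rps3a3-low libraries alone (Igf1r and Igfbp2) and 1 to 2 when 1 library was left out. Of all tested genes 6.72% were called in the main fit, and this share was not counted in the other fits. The number of wider pathway genes that passed was 10, against 4 in the Rps3a3-low libraries alone, all 4 among the 10 (Akt2, Inppl1, Ptprf and Tbc1d1), and 17 with GC and length trends removed, including all 10. The share of all genes that passed was 16.3%, 5.44% and 23.4% in these fits. The fit to the Rps3a3-low libraries has 5 libraries in place of 9, and the cause of the rise to 17 was not tested.

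Log2 fold changes near 0 turned sign. Leaving out 1 library gave -0.066 to 0.069 for Igf1, -0.22 to 0.59 for Irs2, -0.28 to 0.052 for Igfbp6 and -0.024 to 0.39 for Pdk4. In the Rps3a3-low libraries alone Irs1 was 0.048, Igfbp6 was 0.099, Irs2 was -0.70, Igf1 was 0.27 and Pdk4 was 0.97. Irs2 was 0.00013 with upper-quartile scaling and 0.055 with Xist level as a covariate. With that covariate Stc2 lost its call (edgeR adjusted p = 0.0517) at a log2 fold change of -0.37, against -0.36 in the main fit. The causes were not tested. Igfbp2 was not tested in the fit with a mean of at least 1 CPM or without control 3. The median of all genes moved by no more than 0.023 from 0 in any fit.

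Libraries with the same replicate number did not deviate together (correlations 0.0107 to 0.232, none highest with its own number), so the numbers do not pair the samples. With the replicate block, Irs2 was 0.26 and Igfbp6 0.037, both still far from the threshold. Stc2, Stat5b, Pik3r1 and Cdkn1b lost their calls in that fit (edgeR adjusted p of 0.0588, 0.0755, 0.100 and 0.108). Their log2 fold changes were -0.34, -0.26, -0.29 and -0.25, against -0.36, -0.29, -0.32 and -0.27 without the block. Depth limits Igfbp2 (106 counts in all).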
